A study of Arabidopsis thaliana with 72 samples.

Results

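The response of wild-type Arabidopsis thaliana seedlings to N-hydroxypipecolic acid (NHP) was measured 3 h after treatment by comparing 3 RNA-seq libraries of Col-0 seedlings given NHP with 3 libraries of Col-0 seedlings given mock medium. These 6 of the 72 libraries in the series were chosen by genotype, treatment and time alone, and all genes with enough reads to test were used. The series combines 3 genotypes (Col-0, sid2-2 and fmo1-1) with mock or 0.5 mM NHP at 4 times (15 and 30 min after treatment, and 3 and 6 h after it) and has 3 libraries in each group. The mock and NHP groups at 3 h shared the unmutated Col-0 background, an age of 10 days and growth in liquid medium. By their labels they differed in the 0.5 mM NHP, and by the study's sample information also in batch. That information numbers the batches without saying which step of the work they divide. Each library pooled the 15 whole seedlings of 1 well, so roots and shoots are averaged, and p-values measure the spread between wells. Set beside this response are those of Col-0 at 15 min, 30 min and 6 h, and that of sid2-2 at 3 h, made in the same way. sid2-2 is a mutant of ICS1, the isochorismate synthase through which most salicylic acid (SA) is made in infected plants.

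NHP is a mobile immune signal made from lysine by the enzymes ALD1, SARD4 and FMO1. It accumulates in infected and distant leaves and is required for systemic acquired resistance, a state in which the whole plant is readied for later attack. SA, the other signal of this response, is sensed by NPR1, a coactivator, and by NPR3 and NPR4, which act as corepressors. NPR proteins have no DNA-binding domain of their own and reach promoters through TGA factors, which bind TGACG, while WRKY factors bind W-boxes of the form TTGACC or TTGACT.

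The 6 libraries held 21062214 to 25601544 reads assigned to genes, within the range of 19618319 to 28382977 over the 72. Replicates differed by 2.61 to 5.96 times the sampling variance (chi-square of their counts per degree of freedom), so none was a copy of another. The mock libraries at 3 h came from one batch and the NHP libraries from another, so treatment and batch cannot be told apart in the values below. The labelled tissue was checked with 11 root and 11 shoot markers, all of which had reads in each of the 6 libraries and none of which was called. The summed level of the root markers was 72 to 79.9 CPM (counts scaled to a common library total) in mock and 68.0 to 75.2 CPM in NHP. That of the shoot markers was 24418 to 25468 CPM in mock and 25481 to 27020 CPM in NHP.

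By edgeR's quasi-likelihood test, 749 of 20926 genes (3.58%) passed a Benjamini-Hochberg adjusted p of 0.05 and are termed called. Transcripts of 374 genes (1.79%) rose and those of 375 (1.79%) fell, and the median log2 fold change, log2(FC), over all genes was 0.01. Requiring also a change of at least 1 on the log2 scale kept 80 genes (0.382%) that went up and 108 (0.516%) that went down. The rises included the larger changes, with 35 genes above a log2(FC) of 2 and 16 above 3, against 12 below -2. The median mock level of the genes that went up was 0.696 CPM, with 46 of the 80 under 1 CPM. It was 3.84 CPM for genes that went down and 14.6 CPM for all genes. The mock level is part of the ratio that picked these genes, and a gene could enter the test through its NHP libraries alone. These levels are thus a description and show no trait of genes that respond. The 3 NHP libraries lay entirely above or below the 3 mock libraries for 736 of the 749 called genes, and for 4180 (20.0%) of all genes. The number called depended on single libraries: it was 460 without mock replicate 1, the number higher was 215 without mock replicate 1 and 236 without NHP replicate 1, and the number lower was 245 without mock replicate 1 and 222 without NHP replicate 3.

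**Figure D1:**
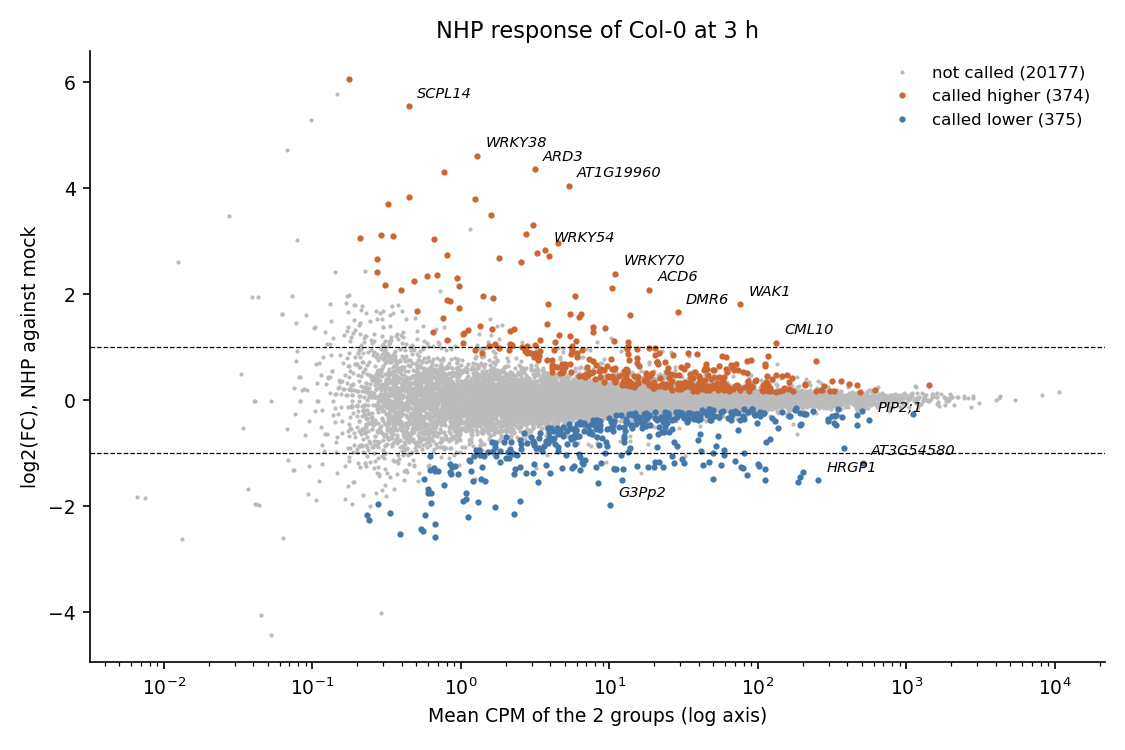
Each point is one of the 20926 tested genes, with the mean CPM of the mock and NHP groups on a log axis against its log2(FC) of NHP against mock in Col-0 at 3 h. Orange points are the 374 genes called higher, blue points the 375 called lower and grey points those not called, with dashed lines at a log2(FC) of 1 and -1, and the largest rises (such as WRKY38 at 4.61) lie at the low end of the level axis.

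The 10 largest rises among genes whose groups were separate and whose mean count reached 50 included regulators of transcription and enzymes. WRKY38, which encodes a WRKY factor of plant defence, was at 0.134, 0.158 and 0 CPM in the mock libraries and at 2.66, 2.39 and 2.33 CPM in the NHP libraries. Every NHP library was above every mock library, and the log2(FC) was 4.61 ± 0.51 (SE, n = 3 per group; edgeR adjusted p = 1.06e-08). ARD3, an acireductone dioxygenase of the pathway that recycles methionine from its methylthio group, was at 0.179, 0.396 and 0.274 CPM in mock and at 4.20, 6.96 and 6.85 CPM in NHP. It rose by a log2(FC) of 4.36 ± 0.34 (edgeR adjusted p = 7.35e-13), with NHP replicate 1 the lowest of the NHP libraries. AT1G19960, annotated as a transcription factor without further detail but listed by the study as uncharacterized, had the lowest adjusted p of these genes. It stood at 0.627, 0.594 and 0.588 CPM in mock and at 10.8, 10.4 and 8.84 CPM in NHP, a log2(FC) of 4.05 ± 0.22 (edgeR adjusted p = 2.37e-18). NAC004, a factor of the NAC family, was at 0.134, 0.198 and 0.157 CPM in mock and 2.81, 2.14 and 2.03 CPM in NHP, without overlap (log2(FC) 3.79 ± 0.38, edgeR adjusted p = 3.72e-10). AT4G16983, a gene with no known product, was at 0, 0 and 0.745 CPM in mock and 3.53, 2.98 and 2.33 CPM in NHP. Its log2(FC) of 3.49 ± 1.00 had an edgeR adjusted p of 0.0420 and was not called in 9 of 14 alternatives (0.0191 to 0.551), among them leaving out any library except mock replicate 3, and it overlaps AT4G16980 on the other strand. The other 5 of the 10 were WRKY51 (log2(FC) 3.30 ± 0.32), DLO1 (3.13 ± 0.28), LURP1 (2.96 ± 0.44), WRKY54 (2.83 ± 0.19) and AT3G22235 (2.77 ± 0.47).

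To show the DNA ahead of these genes, the 250 bases upstream of the RefSeq gene start are given for 4 of the 5 largest rises, 5′ to 3′ on the strand of the gene, from RefSeq TAIR10.1 (the authors mapped to TAIR10). Capitals mark TTGACC or TTGACT, and TGACG, on either strand. The windows are chr5:7496991-7497240 on the minus strand for WRKY38, chr2:11233389-11233638 on the minus strand for ARD3, chr1:6927486-6927735 on the plus strand for AT1G19960 and chr1:436923-437172 on the minus strand for NAC004. That of AT4G16983 lies within AT4G16980 and is not shown.
WRKY38: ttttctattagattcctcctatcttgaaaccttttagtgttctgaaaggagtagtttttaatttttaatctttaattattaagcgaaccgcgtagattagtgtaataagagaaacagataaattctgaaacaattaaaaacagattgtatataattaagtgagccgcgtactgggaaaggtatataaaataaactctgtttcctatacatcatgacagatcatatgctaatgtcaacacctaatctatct
ARD3: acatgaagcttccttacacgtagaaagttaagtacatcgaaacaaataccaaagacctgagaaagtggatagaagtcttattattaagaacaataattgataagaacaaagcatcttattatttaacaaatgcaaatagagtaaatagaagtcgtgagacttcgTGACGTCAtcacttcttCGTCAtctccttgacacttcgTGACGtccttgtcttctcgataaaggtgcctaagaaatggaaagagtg
AT1G19960: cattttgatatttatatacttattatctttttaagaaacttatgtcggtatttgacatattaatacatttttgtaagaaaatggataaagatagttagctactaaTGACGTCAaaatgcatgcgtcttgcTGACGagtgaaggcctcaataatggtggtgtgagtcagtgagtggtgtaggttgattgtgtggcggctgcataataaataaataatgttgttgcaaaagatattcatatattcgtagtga
NAC004: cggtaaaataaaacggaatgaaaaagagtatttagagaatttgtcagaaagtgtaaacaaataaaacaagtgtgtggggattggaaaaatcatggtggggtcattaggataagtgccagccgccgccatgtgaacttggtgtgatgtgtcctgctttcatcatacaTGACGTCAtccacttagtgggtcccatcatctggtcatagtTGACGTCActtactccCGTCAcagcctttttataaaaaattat
The window of WRKY38 held 0 matches, that of ARD3 4, that of AT1G19960 3 and that of NAC004 5, where a palindrome counts once on each strand. Over the 20818 tested genes with such a window, 28.5% held TTGACC or TTGACT and 19.2% held TGACG. Among 79 genes up past a log2(FC) of 1 these shares were 32.9% and 34.2%, and among the 108 genes down they were 30.6% and 14.8%. The palindrome TGACGTCA, singled out after the sequences were seen and so without a test, stood in 8 of the 79 windows of genes up, in 0 of the 108 of genes down and in 108 of the 20818 (0.519%). The 8 genes were NAC004, AT1G19960, SARD1, ARD3, NIMIN-2, DLO1, LLP and WRKY51. A match describes the letters and shows no binding.

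The 10 largest falls by the same rule held fewer known genes. G3Pp2, a glycerol-3-phosphate permease also named root hair specific 15, was at 17.6, 17.5 and 13.1 CPM in mock and 3.26, 4.70 and 4.27 CPM in NHP. The groups did not overlap, and the log2(FC) was -1.98 ± 0.21 (edgeR adjusted p = 9.06e-09). RHS16, a root hair specific receptor-like kinase, went from 13.2, 12.1 and 12 CPM to 3.64, 4.82 and 4.14 CPM (log2(FC) -1.57 ± 0.14), again without overlap. The others were the ankyrin-repeat gene AT5G04730 (log2(FC) -2.14), the TRAF-like gene AT5G26320 (-2.02), AT1G07680 (-1.93), the protein kinase AT1G51870 (-1.89), the extensins EXT6 (-1.55) and HRGP1 (-1.50), the transporter-like AT3G20460 (-1.54) and AT1G11655 (-1.52). Of genes below the count limit, named after their values were seen, the leucine-rich repeat kinase AT4G29450 had the largest called fall, from 0.940, 1.39 and 1.14 CPM in mock to 0.188, 0.252 and 0.129 CPM in NHP (log2(FC) -2.58 ± 0.41).

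**Figure D2:**
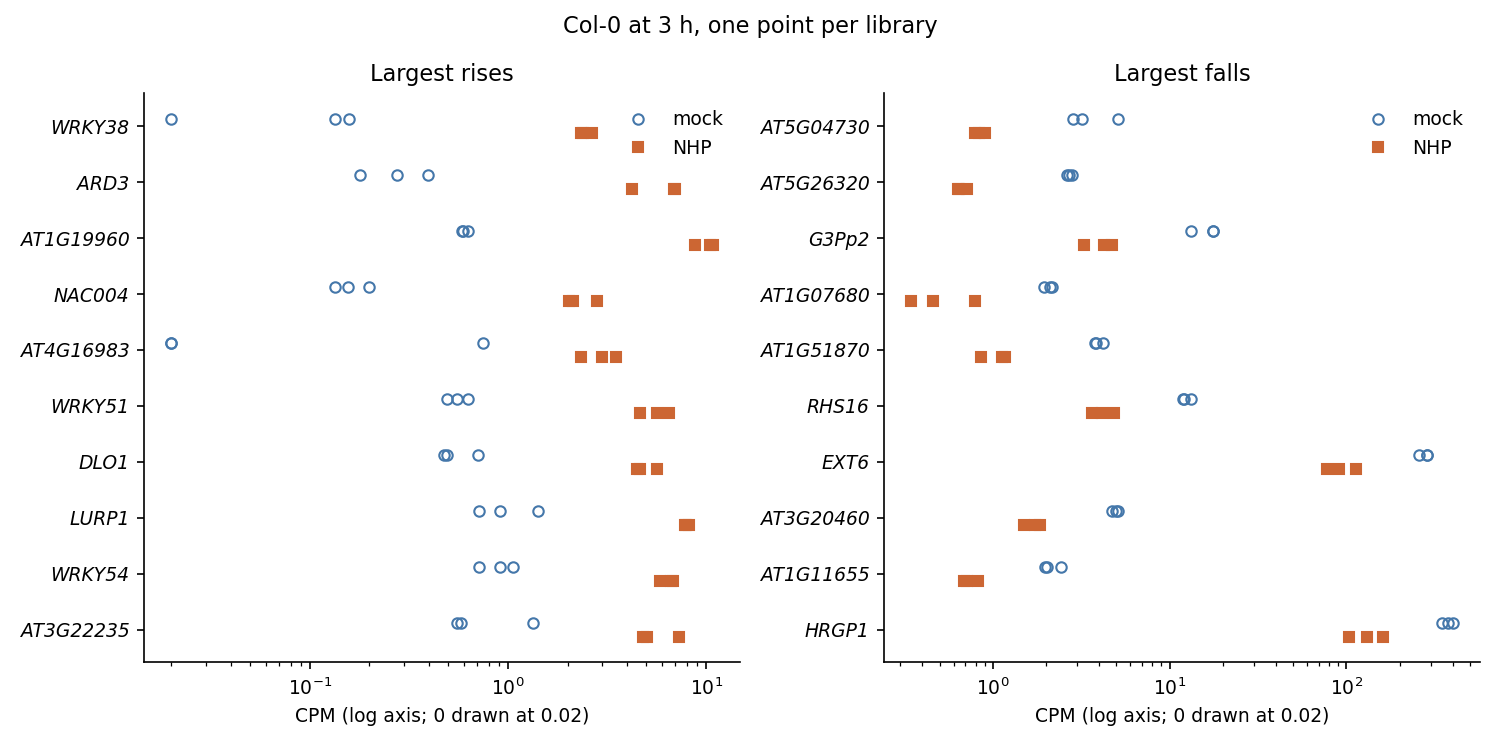
CPM of each library on a log axis, with 0 drawn at 0.02, for the 10 largest rises (left) and the 10 largest falls (right) in Col-0 at 3 h. Blue circles are the 3 mock libraries and orange squares the 3 NHP libraries, which do not overlap for any of the 20 genes because the rule required it.

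The genes of NHP synthesis differed in their response. Of the 4 genes that make or glucosylate NHP, 2 rose and 0 fell, with a list median log2(FC) of 0.68 against 0.01 over all genes. Over all genes 1.79% rose and 1.79% fell, and the counts in this and later lists are to be read beside these shares. UGT76B1, the glucosyltransferase that inactivates NHP and SA, was at 29.0, 26.2 and 27.2 CPM in mock and at 51.6, 54.0 and 44.6 CPM in NHP (log2(FC) 0.87 ± 0.10, edgeR adjusted p = 7.94e-08). AT5G52810, which encodes SARD4, rose by 0.50 ± 0.07. ALD1, the aminotransferase of the first step, had 1, 3 and 1 reads in mock and 14, 9 and 6 in NHP, a ratio of 5.67 (95% counting interval 2.17 to 18.8), and was not called by edgeR (adjusted p = 0.0623, and 0.0345 in a fit of the 72 libraries). FMO1, which makes NHP itself, had 39, 49 and 60 reads in mock and 67, 76 and 46 in NHP, and these groups overlapped (log2(FC) 0.34 ± 0.26, edgeR adjusted p = 0.604). Counting intervals here cover counting error only.

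Of 9 genes of SA synthesis 0 were called at 3 h, where 3.58% of all genes were (median log2(FC) 0.06, range -0.24 to 0.17). The libraries overlapped for each of the 9, where 20.0% of all genes had groups apart, and 7 had a log2(FC) above 0. Beside those shares, counts of 0 in 9 genes cannot show that the pathway did not respond. ICS1 was at 9.94, 8.16 and 9.17 CPM in mock and 11.2, 10.2 and 9.27 CPM in NHP, overlapping, with a log2(FC) of 0.17 ± 0.12 (edgeR adjusted p = 0.583). EDS5, which exports its product from the plastid, had a log2(FC) of 0.13 ± 0.10 (edgeR adjusted p = 0.623). Genes of SA turnover included calls, with 3 of 6 tested members higher and 0 lower (median log2(FC) 0.37). DMR6, an SA hydroxylase that lowers SA, was at 12.1, 14.7 and 14.5 CPM in mock and 46.0, 45.4 and 39.6 CPM in NHP. That is more than the spread of either group, with a log2(FC) of 1.66 ± 0.11 (edgeR adjusted p = 6.21e-15). DLO1, its close relative, stood at 0.492, 0.475 and 0.706 CPM in mock and 5.67, 4.49 and 4.61 CPM in NHP. UGT74F2, an SA glucosyltransferase, rose by 0.46 ± 0.07.

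Among 16 genes of SA perception and its coregulators, 6 rose and 0 fell (median log2(FC) 0.21). The receptors differed. NPR3 was at 13.5, 13.8 and 13.8 CPM in mock and 26.2, 28.2 and 26.7 CPM in NHP (log2(FC) 0.98 ± 0.09, edgeR adjusted p = 2.89e-11). NPR4 was at 10.7, 11.7 and 12.3 CPM in mock and 19.5, 18.5 and 18.8 CPM in NHP (log2(FC) 0.71 ± 0.08, edgeR adjusted p = 8.27e-09). For NPR1 the libraries overlapped, at 34.7, 34.5 and 35.4 CPM in mock and 35.6, 37.5 and 34.4 CPM in NHP (log2(FC) 0.04 ± 0.06, edgeR adjusted p = 0.856). None of the 7 TGA genes on the list was called. Among partners of these proteins, GRX480, a glutaredoxin that binds TGA factors, rose by 2.73 ± 0.44 and NIMIN-2, a small NPR1-binding protein, by 1.82 ± 0.18. NIMIN-1 was called at 2.67 ± 0.80 (edgeR adjusted p = 0.0478) and lost the call in 7 of 12 alternatives (0.0258 to 0.244), including those without replicate 2 or 3 of either group. SARD1, a transcription factor for ICS1, was at 3.67, 3.29 and 2.51 CPM in mock and 10.6, 7.68 and 9.53 CPM in NHP, without overlap (log2(FC) 1.56 ± 0.18, edgeR adjusted p = 1.93e-08). CBP60G, the factor that shares much of its function, was at 4.83, 5.74 and 3.37 CPM in mock and 8.44, 9.98 and 5.95 CPM in NHP. These groups did not overlap, but the difference was not called (log2(FC) 0.81 ± 0.32, edgeR adjusted p = 0.208), although it was by DESeq2 on the 6 libraries (adjusted p = 0.0053).

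Of 62 tested WRKY genes, 8 rose and 1 fell, where 1.79% of all genes rose and 1.79% fell, while the median of the family was 0.09. The 8 were WRKY38, WRKY62, WRKY51, WRKY54, WRKY70, WRKY59, WRKY46 and WRKY53, and 7 of them were up past a log2(FC) of 1. WRKY70, a factor that favours SA over jasmonate responses, was at 3.58, 3.37 and 3.53 CPM in mock and 18.7, 17.8 and 18.4 CPM in NHP. The libraries of each group lay within 1 CPM of each other, and the log2(FC) was 2.39 ± 0.22 (edgeR adjusted p = 5.76e-10). WRKY54, its nearest relative, went from 0.716, 0.911 and 1.06 CPM to 6.64, 5.87 and 6.81 CPM. WRKY62, the nearest relative of WRKY38, was at 0.134, 0.0396 and 0.0392 CPM in mock and 1.09, 1.85 and 1.47 CPM in NHP (log2(FC) 4.31 ± 0.53). WRKY53 started higher, at 9.35, 12.4 and 9.25 CPM, and reached 20.6, 22.4 and 17.4 CPM (log2(FC) 0.96 ± 0.11). WRKY46 was called at 1.04 ± 0.28 (edgeR adjusted p = 0.0230), but not in a fit of the 6 libraries alone or without replicate 1 or 2 of mock or replicate 2 of NHP (up to 0.202). The family member called lower was WRKY14 (log2(FC) -0.40), named after its values were seen, and this call was lost without replicate 1 or 2 of mock or replicate 3 of NHP (edgeR adjusted p up to 0.164).

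Of 19 genes known as SA-responsive defence outputs, 10 rose and 0 fell, and the median log2(FC) was 1.09. The list was written with the response of many of its genes known, so its direction is a description. LURP1, needed for full resistance to an oomycete, was at 0.716, 0.911 and 1.41 CPM in mock and 8.22, 7.93 and 7.85 CPM in NHP. The groups were far apart (log2(FC) 2.96 ± 0.44, edgeR adjusted p = 3.36e-05). ACD6, a membrane protein with ankyrin repeats that promotes SA signalling, was at 4.30, 8.08 and 8.66 CPM in mock and 27.4, 33.3 and 29.4 CPM in NHP (log2(FC) 2.08 ± 0.24). WAK1, a kinase that spans the membrane and binds wall pectin, was at 33.2, 32.8 and 35.2 CPM in mock and 118, 115 and 123 CPM in NHP. It was the most abundant of the named genes with a rise past a log2(FC) of 1.5 (1.81 ± 0.15, edgeR adjusted p = 1.36e-10). CML10, a calmodulin-like protein, had 84.9, 83.6 and 84.4 CPM in mock and 165, 184 and 189 CPM in NHP (log2(FC) 1.09 ± 0.13). LLP, a legume-type lectin, rose by 2.11 ± 0.36 and PROSCOOP4, the precursor of a secreted immune peptide, by 1.35 ± 0.19. BDA1, a membrane ankyrin protein, was called at 2.15 ± 0.54 and lost the call without replicate 1 or 2 of either group (edgeR adjusted p up to 0.116). The pathogenesis-related genes, classic late markers of SA, were not called. PR1 was at 1.92, 0.396 and 2.08 CPM in mock and 1.58, 2.1 and 1.6 CPM in NHP, with overlap (log2(FC) 0.27 ± 0.61, edgeR adjusted p = 0.906), and PR2 and PR5 had log2(FC) values of 0.58 ± 0.60 and 0.20 ± 0.15.

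Some defence-related transcripts rested on few reads. PCC1, a small membrane protein of the cysteine-rich TM module family, had 3, 0 and 0 reads in mock and 14, 22 and 8 in NHP, a ratio of 14.3 (4.60 to 72.2). Its call (edgeR adjusted p = 0.0354) was lost in 6 of 12 alternatives, up to 0.160, including those without replicate 2 or 3 of mock or replicate 1 or 2 of NHP. SCPL14, a serine carboxypeptidase-like protein, had 0, 0 and 1 reads in mock and 36, 19 and 11 in NHP, a ratio of 64.6 (11.2 to 2588). AT1G15610, which has no known product and was named after its values were seen, had 0 reads in each mock library and 10, 10 and 6 in NHP, so it was at least 8.48-fold higher against a floor of 3 reads over the mock group.

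Receptor families showed calls in a minority of their members, where 1.79% of all genes rose and 1.79% fell. Of 37 cysteine-rich receptor-like kinases 7 rose and 1 fell (median log2(FC) 0.23), a number of rises that was 4 without NHP replicate 1. CRK9 was at 15.5, 17.1 and 13.2 CPM in mock and 30.8, 27.0 and 26.6 CPM in NHP (log2(FC) 0.88 ± 0.12), and CRK5, CRK14 and CRK15 rose by 0.45 ± 0.10, 0.87 ± 0.16 and 1.34 ± 0.27. Of 5 wall-associated kinases WAK1 and WAK2 rose, WAK2 by only 0.36 ± 0.07. These kinases are close copies of one another in tandem, so reads may be shared between them. Of 12 pattern receptors and coreceptors, SOBIR1, the partner kinase of receptor-like proteins, rose by 0.47 ± 0.11 and MIK2 (AT4G08850), a receptor of SCOOP peptides, by 0.30 ± 0.08. Both calls were lost without NHP replicate 2, and that of AT4G08850 also without replicate 1 or 2 of mock or replicate 1 of NHP (edgeR adjusted p up to 0.0908). The EDS1 node and its helper receptors had 1 call in 8 members, AT5G66910 at 0.38 ± 0.10 (edgeR adjusted p = 0.0176, lost in 5 of 14 alternatives).

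**Figure D3:**
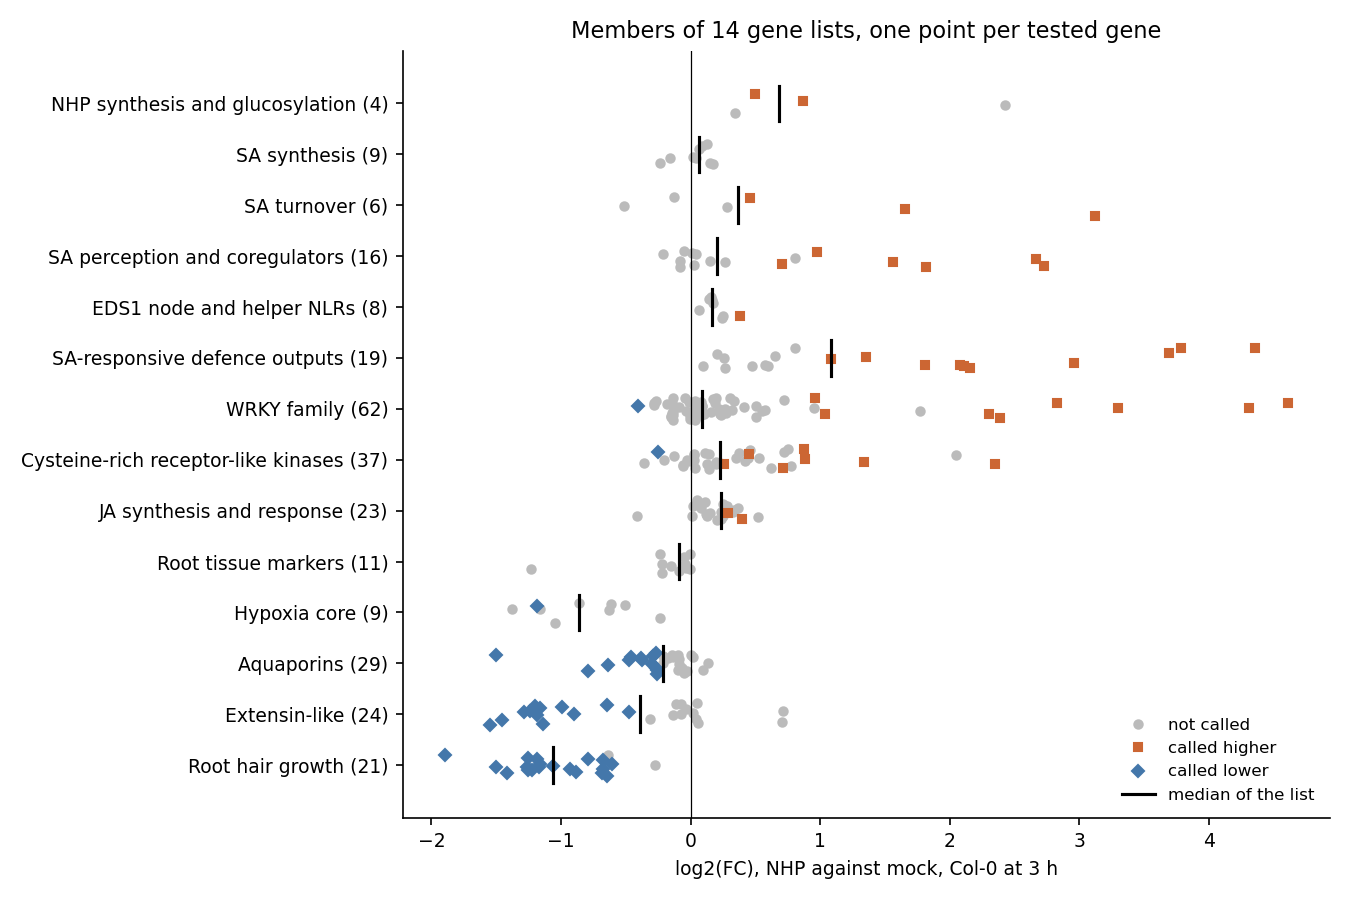
Log2(FC) of NHP against mock in Col-0 at 3 h for each tested gene (1 point) of 14 gene lists, with the number tested in brackets, spread at random along the vertical within a list. Grey points were not called, orange squares were called higher and blue diamonds lower, the black bar is the median of the list, and the medians run from -1.06 for the root hair list to 1.09 for the SA-responsive outputs.

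Lists set up after the values were seen, and so given as description, cover the larger receptor families. Beside their counts stand the 1.79% of all genes that rose and the 1.79% that fell. Of 153 intracellular receptors with NB-ARC or TIR domains, 8 rose and 2 fell (median log2(FC) 0.08), but the rises numbered 4 without mock replicate 1 or NHP replicate 3 and 5 without mock replicate 2 or NHP replicate 1. RPS2, which detects the bacterial effector AvrRpt2, was at 11.5, 9.86 and 10.3 CPM in mock and 15.2, 15.6 and 15.8 CPM in NHP (log2(FC) 0.56 ± 0.10, edgeR adjusted p = 8.78e-05). ZAR1, the receptor that assembles into a resistosome, was at 55.0, 61.4 and 60.1 CPM in mock and 91.6, 82.4 and 87.7 CPM in NHP (log2(FC) 0.57 ± 0.07, edgeR adjusted p = 7.94e-08). The TIR-domain gene AT1G72910 went from 3.00, 2.30 and 2.70 CPM to 7.20, 8.94 and 8.54 CPM (log2(FC) 1.62 ± 0.18). Of 162 leucine-rich repeat kinases 10 rose and 13 fell (median log2(FC) -0.04), so the family moved in both directions. The rises numbered 5 without mock replicate 1, 6 without mock replicate 3 or NHP replicate 1 and 3 without NHP replicate 2, and the falls 7 without NHP replicate 3. Of 64 lectin receptor kinases 3 rose and 0 fell. The largest log2(FC) on that list was 0.97. RK3, a receptor kinase with an S-locus lectin domain that is not on the list, was at 7.38, 7.29 and 5.76 CPM in mock and 15.2, 15.0 and 14.0 CPM in NHP (log2(FC) 1.11 ± 0.12).

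Among the lists, that of root hairs, the tubular outgrowths of root epidermal cells, had the highest share of falls. Of 21 genes of root hair growth 19 fell and 0 rose at 3 h, where 1.79% of all genes fell, with a median log2(FC) of -1.06. Leaving out single libraries gave 16 to 19. Their summed level was 970, 958 and 844 CPM in the mock libraries and 404, 484 and 343 CPM in the NHP libraries. The NHP libraries were all lower, with replicate 3 the lowest in both groups. The summed root markers, given above, overlapped between the groups, although each of the 11 had a log2(FC) below 0 (median -0.09, lowest -1.23 for CASP5) with none called. The summed shoot markers did not overlap and were higher in NHP, by a narrow gap. The part of these shifts in the fall of the root hair genes was not tested. In bulk seedlings, fewer hair cells and less RNA per hair cell cannot be told apart. Upstream regulators and wall components of this list differed in size. RHD6, the bHLH factor that starts hair formation, was at 3.49, 3.84 and 3.29 CPM in mock and 2.29, 3.15 and 3.41 CPM in NHP, and these overlapped (log2(FC) -0.27 ± 0.19, edgeR adjusted p = 0.571). RSL4, which sets hair length downstream of it, was at 5.77, 6.02 and 6.12 CPM in mock and 3.68, 3.90 and 3.58 CPM in NHP (log2(FC) -0.68 ± 0.18, edgeR adjusted p = 0.0148), a call lost without NHP replicate 1 or NHP replicate 3 (up to 0.0634). Its relative RSL2 fell too (log2(FC) -1.90 ± 0.38). PRP3, a proline-rich wall protein of hairs, was at 166, 176 and 149 CPM in mock and 57.4, 68.0 and 47.9 CPM in NHP (log2(FC) -1.50 ± 0.12, edgeR adjusted p = 1.27e-10). The hair peroxidase RHS19 had a log2(FC) of -1.41 ± 0.12, the wall-loosening EXPA18 of -1.26 ± 0.12 and EXPA7 of -1.17 ± 0.12. RHD2, the NADPH oxidase that feeds tip growth with reactive oxygen, was at 29.7, 27.6 and 27.3 CPM in mock and 19.6, 19.7 and 16.2 CPM in NHP (log2(FC) -0.61 ± 0.09).

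Families of wall proteins followed in part. Of 24 extensin-like genes, which encode rigid glycoproteins of the wall, 12 fell and 0 rose (median log2(FC) -0.39), among them the root hair genes LRX1 and LRX2. AT3G54580 was the most abundant, at 738, 701 and 680 CPM in mock and 313, 366 and 252 CPM in NHP (log2(FC) -1.19 ± 0.13, edgeR adjusted p = 7.08e-08). EXT6 was at 287, 285 and 257 CPM in mock and 91.4, 114 and 77.9 CPM in NHP, and EXT10 and EXT12 had log2(FC) values of -1.46 ± 0.13 and -1.20 ± 0.12. Extensins are repetitive and alike, and how a read matching several of them was counted is not given in the sources used here, so the share of each is uncertain. Of 29 xyloglucan-modifying enzymes 5 fell, or 3 without mock replicate 2 or NHP replicate 3, and of 18 expansins 3 fell and 1 rose. XTH14, XTH26 and XTH12 had log2(FC) values of -1.25 ± 0.11, -1.17 ± 0.14 and -1.11 ± 0.15, and XTH31 of -0.42 ± 0.10. Among the expansins EXPA16 was called at 0.98 ± 0.27 and EXPA17 at -0.56 ± 0.16, calls lost in 4 and 3 of 14 alternatives (edgeR adjusted p up to 0.214 and 0.228). The peroxidases moved both ways, with 6 of 57 lower and 3 higher, against 1.79% of all genes in each direction. The most abundant of those that fell, AT1G05250, was at 306, 294 and 272 CPM in mock and 116, 133 and 93.5 CPM in NHP (log2(FC) -1.35 ± 0.11, edgeR adjusted p = 4.16e-11). AT4G26010 and AT1G30870 were lower by a similar amount (log2(FC) -1.28 ± 0.10 and -1.04 ± 0.11), and AT5G17820 by less (-0.72 ± 0.09).

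Water channels fell by small amounts in many members. Of 29 aquaporins 13 fell and 0 rose, with a median log2(FC) of -0.21, and single libraries left out gave 10 to 13. For 18 of the 29 the NHP libraries all lay below the mock libraries, against 20.0% of all genes with no overlap in either direction. PIP2;1, an abundant channel of the plasma membrane, was at 636, 642 and 611 CPM in mock and 494, 499 and 467 CPM in NHP (log2(FC) -0.37 ± 0.06, edgeR adjusted p = 1.85e-05). PIP1;1 was at 400, 402 and 370 CPM in mock and 292, 298 and 262 CPM in NHP (log2(FC) -0.46 ± 0.05, edgeR adjusted p = 2.21e-09). PIP2;2 had a log2(FC) of -0.39 ± 0.06. Channels of the vacuole membrane behaved likewise, TIP1;1 at -0.47 ± 0.06 and TIP1;2 at -0.26 ± 0.05. TIP2;3, a root form, fell the most, from 17.0, 21.2 and 15.3 CPM to 7.47, 6.17 and 5.17 CPM (log2(FC) -1.50 ± 0.19).

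Of 9 core genes of hypoxia, the response to low oxygen, 1 fell and 0 rose, although for 8 of the 9 the NHP libraries lay entirely below the mock libraries, where 20.0% of all genes had groups apart in either direction (median log2(FC) -0.86). SAD6, a desaturase, was at 32.5, 35.8 and 45.4 CPM in mock and 14.3, 21.8 and 14.2 CPM in NHP (log2(FC) -1.18 ± 0.25, edgeR adjusted p = 0.00279, and 0.0796 in a fit of the 6 libraries alone). PDC1, a decarboxylase of fermentation, was at 37.1, 40.6 and 53.5 CPM in mock and 19.1, 26.7 and 17.8 CPM in NHP and was not called (edgeR adjusted p = 0.0773), though DESeq2 called it on the 48 libraries (adjusted p = 0.0354) and on the 6 (0.00108). The median of this list was 0.13 at 30 min and 0.19 at 6 h, with 0 calls at either time.

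Transcripts of the chloroplast genome, a list set up after the values were seen, were more abundant in NHP. Of 68 such genes 17 were higher and 0 lower (median log2(FC) 0.34). Without mock replicate 1 the number higher was 7, without mock replicate 2 or NHP replicate 1 it was 11, and without mock replicate 3 it was 20. Chloroplast genes took 0.258%, 0.273% and 0.332% of the reads in mock and 0.346%, 0.356% and 0.378% in NHP. The groups did not overlap, but mock replicate 3 was closer to the NHP libraries than to the other mock libraries. In Col-0 at 30 min the share was 0.329% to 0.337% in mock and 0.298% to 0.382% in NHP. At 6 h it was 0.325% to 0.373% in mock and 0.356% to 0.41% in NHP. In sid2-2 at 3 h it was 0.379% to 0.401% in mock and 0.433% to 0.478% in NHP. Mock replicates 1 and 2 of Col-0 at 3 h lay below all of these. The libraries were made from poly(A) RNA, and most chloroplast transcripts carry no stable poly(A) tail. Nuclear genes of photosystems and light harvesting showed 0 calls in 51 members (median log2(FC) 0.06) at 3 h in Col-0. ATCG00480, the most abundant gene called higher, was at 1206, 1201 and 1422 CPM in mock and 1499, 1538 and 1625 CPM in NHP (log2(FC) 0.28 ± 0.08, edgeR adjusted p = 0.0421). This call was lost in 7 of 14 alternatives (up to 0.221), among them leaving out any library except mock replicate 3. The next most abundant were CPN20, a chloroplast chaperonin (log2(FC) 0.20 ± 0.05), and AT4G01150, a CURT1A-like thylakoid protein (0.16 ± 0.05), whose calls were lost in 4 and 10 of 14 alternatives, for both when replicate 1 or 2 of mock or replicate 1 or 3 of NHP was left out.

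**Figure D4:**
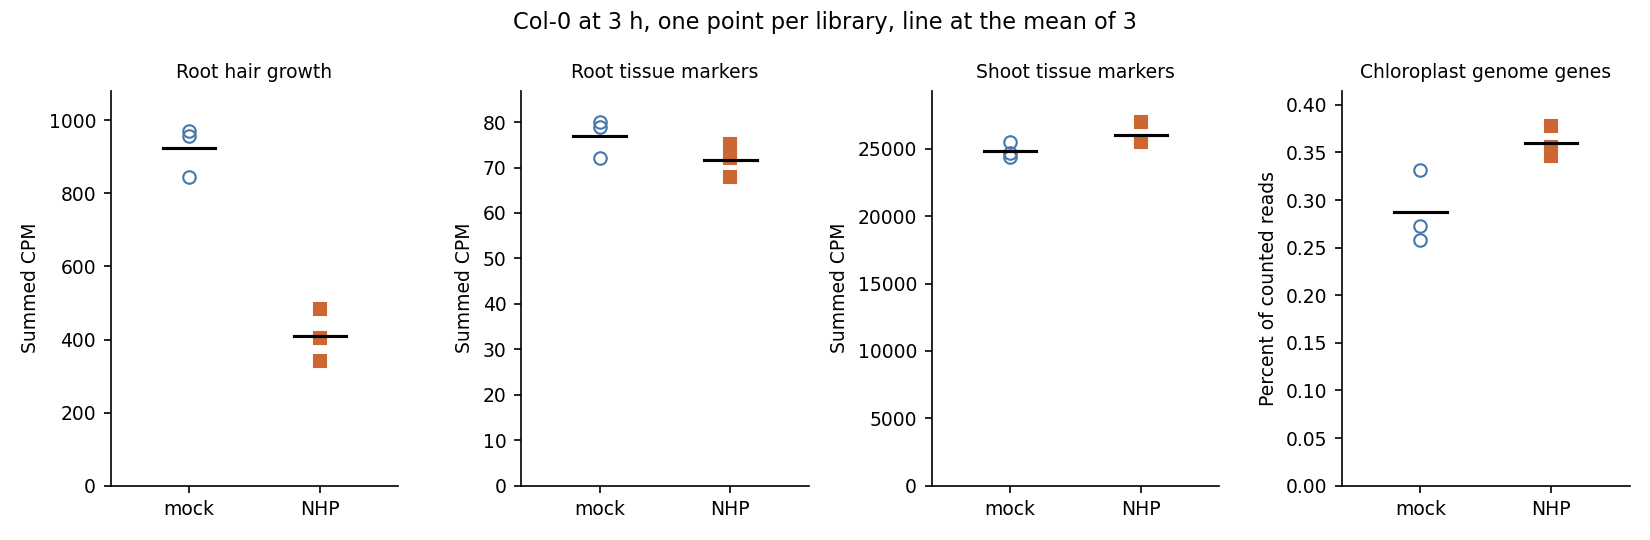
Summed CPM of the root hair, root and shoot lists and the percentage of counted reads in chloroplast genome genes, with 1 point per library (blue circles mock, orange squares NHP) and a line at the mean of 3, on axes that start at 0. Root hair sums fell from 844 to 970 CPM in mock to 343 to 484 CPM in NHP, while the root marker sums of the groups overlapped and the shoot marker sums were higher in NHP (25481 to 27020 CPM against 24418 to 25468 CPM).

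Other pathways showed few calls, where 3.58% of all genes were called. Of 23 genes of jasmonate synthesis and response 2 were higher, AOC2 (log2(FC) 0.40 ± 0.12) and JAZ2 (0.29 ± 0.08), and both calls were lost when any of 5 or more libraries was left out in turn (edgeR adjusted p up to 0.230 and 0.144). Of the 23, 22 had a log2(FC) above 0. For 9 the NHP libraries lay entirely above the mock libraries and for 0 below, where 20.0% of all genes had groups apart in either direction. Of 16 genes of protein folding and secretion CRT3, a calreticulin that folds pattern receptors, rose by 0.24 ± 0.05. Of 13 genes of indole glucosinolates and camalexin 1 was called, AT2G44490 at 0.18, a call lost in 11 of 14 alternatives. Of 40 tau and phi glutathione transferases 3 rose, or 1 without NHP replicate 2, led by GSTU22, which went from 2.33, 3.21 and 1.61 CPM to 10.2, 9.86 and 7.72 CPM (log2(FC) 1.96 ± 0.28). GSTU19, an abundant member, was called at 0.31 ± 0.07 and GSTU8 at 0.43 ± 0.12, of which the latter lost its call in 6 of 14 alternatives. UGT73B3, a glucosyltransferase, rose by 0.85 ± 0.14, as 1 of 10 members of its group. ARD3 was the only call among 9 genes of methionine salvage. Of 11 clock genes RVE8 was called at 0.39 ± 0.12 and lost the call in 12 of 14 alternatives. None of 15 iron uptake genes, 10 genes of abscisic acid and cold, or 24 Aux/IAA genes was called by edgeR's quasi-likelihood test. With 3.58% of all genes called, an absence of calls in lists of this size cannot show that they did not respond. One of 6 reference genes, ACT2, fell from 553, 530 and 535 CPM to 472, 481 and 457 CPM (log2(FC) -0.20 ± 0.04, edgeR adjusted p = 0.000956).

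Some of the 80 genes up and the 108 down were direct neighbours on the chromosome. Of 79 genes up with a position, 12 (15.2%) stood next to another gene up, while 0.745% of all tested genes stood next to one. Of 108 genes down, 8 (7.41%) stood next to another gene down, against 1.03% of all. The pairs up were ACD6 with the ankyrin gene AT4G14390, PCC1 with AT3G22235, SCPL16 with SCPL14, CRRSP57 with AT5G41290, DLO1 with AT4G10510, and AT2G30660 with AT2G30670. In the first 4 pairs both genes belong to the same family, where reads could be shared. ACD6 itself rose by 2.08 ± 0.24 and AT4G14390 by 1.34 ± 0.26, and CRRSP57 rose by 2.60 ± 0.28 and AT5G41290 by 2.69 ± 0.35. Of the pairs down, 3 were extensins (AT3G54580 with HRGP1, AT4G08400 with AT4G08410, AT5G06630 with EXT10).

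The strand of the counts is not given in the sources used here, so reads of genes that overlap on opposite strands are uncertain. This holds for 26.7% of tested genes, for 12 of the 80 up and 17 of the 108 down, and among genes named here for WRKY53, SARD1, CML10, LLP, BDA1, RPS2, ZAR1, UGT74F2, SOBIR1, RHS19, EXPA18, EXPA7, WAK2, SCPL16, UGT73B3, EXT10, EDS5, NPR1, CPN20, SRO5, AT4G16983, AT4G26010, AT1G30870, AT1G16260, AT1G69730 and ARC6. AT5G52810 overlaps a gene on the same strand.

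Earlier and later responses of Col-0 were set beside that at 3 h, using different libraries. More of the falls than of the rises were already called at 15 and 30 min. Of the 375 genes lower at 3 h, 154 (41.1%) were also lower at 15 min, where 315 genes were (48.9% of them shared), and 156 (41.6%) at 30 min, where 240 were (65.0% shared). Of the 374 genes higher at 3 h, 32 (8.56%) were also higher at 15 min, where 174 genes were (18.4% shared), and 35 (9.36%) at 30 min, where 163 were (21.5% shared). At 6 h, 172 of the 374 were higher (46.0%, or 23.3% of 739) and 260 of the 375 were lower (69.3%, or 36.5% of 713). In the background, 0.832% of all genes were higher and 1.51% lower at 15 min, 0.779% and 1.15% at 30 min, and 3.53% and 3.41% at 6 h. The root hair list had 18 of 21 members lower at 30 min, 19 at 3 h and 20 at 6 h, and medians of -1.09, -1.06 and -1.23. The SA-responsive outputs had 2 of 19 higher at 30 min, 10 at 3 h and 12 at 6 h, with medians of -0.07, 1.09 and 1.5. Of the 29 aquaporins 13 were lower at 3 h, against 1 at 30 min and 14 at 6 h.

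The change of response between 30 min and 3 h was tested directly, and differed for 49 genes (0.234%), 26 with a higher response at 3 h (0.124%) and 23 with a lower one (0.110%). The mock and NHP libraries at 30 min also came from separate batches. LURP1 was at 3.31, 8.32 and 6.46 CPM in mock and 2.67, 5.32 and 3.91 CPM in NHP at 30 min, where the groups overlapped, and the log2(FC) rose by 3.56 ± 0.58 to 3 h (edgeR adjusted p = 0.00255). Its mock level was lower at 3 h than at 30 min, at 0.716 to 1.41 CPM. WAK1 was at 25.7, 38.0 and 34.0 CPM in mock and 30.6, 39.3 and 37.0 CPM in NHP at 30 min, again overlapping (difference 1.68 ± 0.21, edgeR adjusted p = 4.92e-05). AT1G19960 was at 0.808, 1.46 and 1.27 CPM in mock and 3.90, 3.13 and 3.31 CPM in NHP at 30 min, without overlap (difference 2.49 ± 0.34, edgeR adjusted p = 4.92e-05). ACD6 (difference 2.36 ± 0.35), AT1G72910 (1.48 ± 0.27), RK3 (1.03 ± 0.21), RPS2 (0.62 ± 0.14) and ZAR1 (0.56 ± 0.10) also responded more at 3 h. SRO5, of the RCD1 family of stress regulators, was at 5.94, 5.03 and 5.44 CPM in mock and 8.15, 8.55 and 7.82 CPM in NHP at 30 min, and at 4.07, 5.78 and 6.66 CPM in mock and 2.96, 3.52 and 2.93 CPM in NHP at 3 h. Its response fell by 1.39 between these times (edgeR adjusted p = 0.0108, and 0.0515 without mock replicate 3 of 3 h), although its fall at 3 h by itself was lost without replicate 2 or 3 of mock or replicate 1 or 3 of NHP (up to 0.0993).

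Between 3 h and 6 h the response differed for 6 genes (0.0287%), a number that ran from 0 to 19 when single libraries were left out and was 69 by DESeq2, while 2075 genes had an unadjusted p below 0.05. ECS1, a wall protein linked to resistance against a bacterium, was at 44.5, 44.3 and 43.6 CPM in mock and 80.7, 81.8 and 69.8 CPM in NHP at 3 h. At 6 h it was at 26.8, 32.4 and 23.9 CPM in mock and 101, 143 and 131 CPM in NHP, a difference in log2(FC) of 1.36 ± 0.22 (edgeR adjusted p = 0.00802, and 0.0554 without mock replicate 3 of 6 h). WRKY53 went the other way, since its mock libraries at 6 h stood at 15.7, 16 and 15.6 CPM against 19.0, 18.2 and 17.9 CPM in NHP. Its difference of -0.74 ± 0.15 (edgeR adjusted p = 0.0331) was lost in 9 of 17 alternatives (up to 0.121).

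In sid2-2 at 3 h, 2453 genes were called (11.7%), 1178 higher (5.63%) and 1275 lower (6.09%). Of the 374 genes higher in Col-0, 216 (57.8%, or 18.3% of the 1178) were higher in sid2-2 too, and of the 375 lower 157 (41.9%, or 12.3% of the 1275) were lower. Of genes past a log2(FC) of 1, shared genes were 55 of 80 up (68.8%, or 21.5% of 256, which are 1.22% of all) and, past -1, 37 of 108 down (34.3%, or 60.7% of 61, which are 0.292% of all). The test of the difference called 449 genes (2.15%), 380 of them with a lower response in sid2-2 (1.82%), and held 1 of the 80 genes up and 1 of the 108 genes down in Col-0 (CML10 and AT3G18450). The number ran from 97 to 701 when single libraries of these groups were left out. The mock libraries of sid2-2 at 3 h were of the same batch as the NHP libraries of Col-0, so genotype and batch cannot be told apart in this difference. Of 51 photosystem and light-harvesting genes 28 differed, with 40 lower in sid2-2 (median log2(FC) -0.25) and 0 called in Col-0.

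Among genes high on the lists of rises, most had sid2-2 responses that were not called different. WRKY70 was at 1.96, 3.06 and 1.87 CPM in mock and 13.5, 10.4 and 8.90 CPM in NHP in sid2-2, a log2(FC) of 2.25 ± 0.24 against 2.39 ± 0.22 in Col-0. AT1G19960 was at 0.0798, 0.263 and 0.144 CPM in mock and 7.73, 8.02 and 5.66 CPM in NHP. LURP1 was low in sid2-2, with 1, 0 and 0 reads in mock and 8, 3 and 5 in NHP, a ratio of 17.4 (95% counting interval 2.70 to 729.5), so the size of its response there was imprecise. CML10 did differ. It was at 73.1, 89.3 and 61.5 CPM in mock and 92.0, 91.1 and 99.3 CPM in NHP in sid2-2, where its log2(FC) was 0.33 ± 0.13 against 1.09 ± 0.13 in Col-0 (difference -0.75 ± 0.19, edgeR adjusted p = 0.0269). PRP3 of root hairs started lower in sid2-2, at 84.5, 101 and 94.8 CPM in mock, and reached 54.0, 40.3 and 46.8 CPM in NHP, a log2(FC) of -0.99 ± 0.13.

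**Figure D5:**
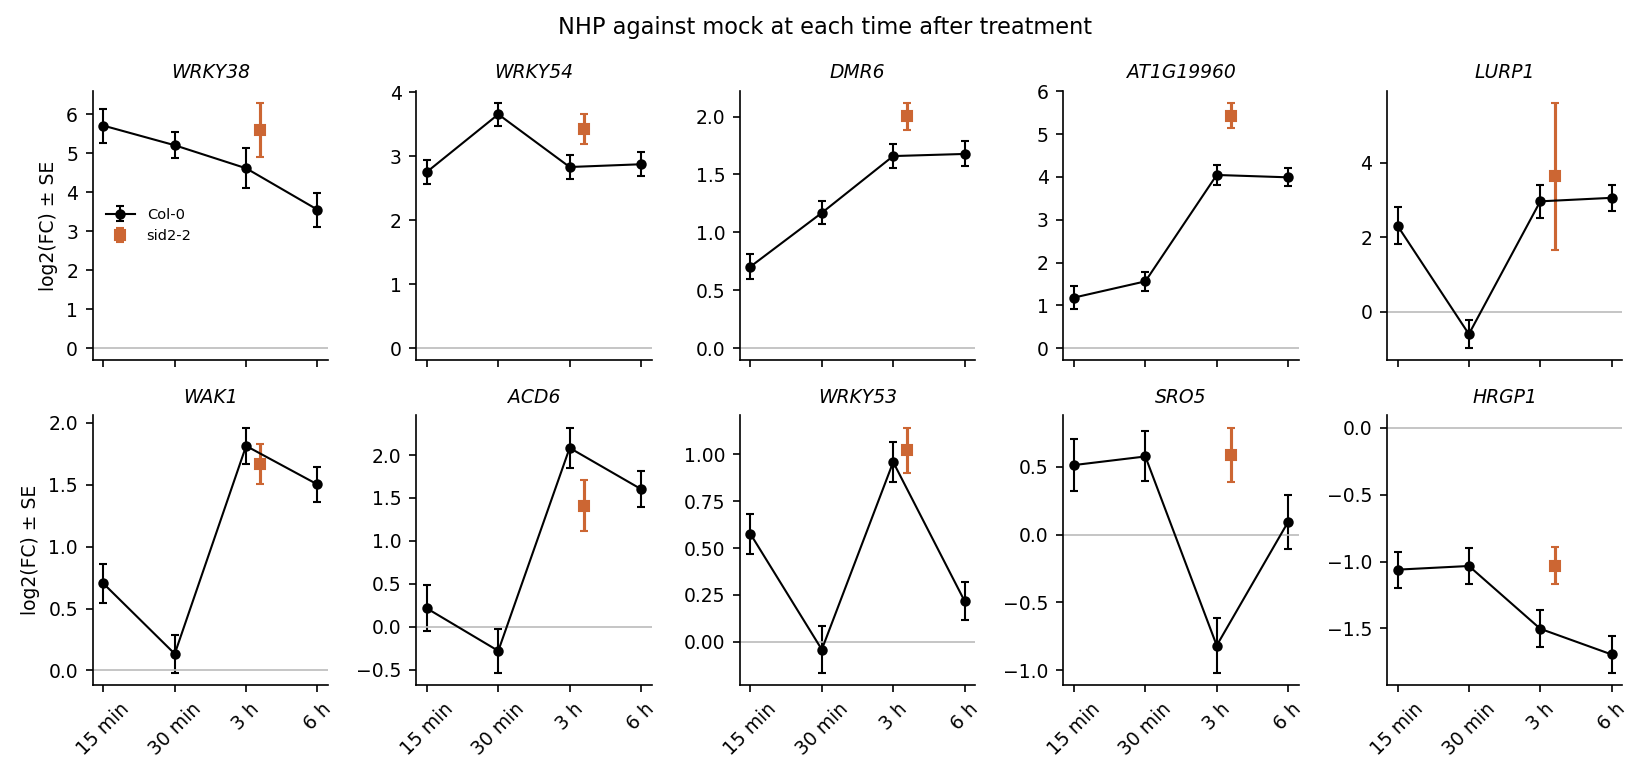
Log2(FC) ± SE of NHP against mock by time after treatment in Col-0 (black circles) and at 3 h in sid2-2 (orange squares) for 10 genes, from 3 libraries per group and with a vertical scale of its own for each gene. LURP1, WAK1, ACD6 and WRKY53 lie near 0 or below it at 30 min and above it at 3 h, while HRGP1 is below 0 at each time.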

How the data were processed

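RNA was extracted from whole 10-day-old seedlings in 3 wells per condition, and poly(A) libraries were sequenced as paired-end reads. Per the study's methods, the authors trimmed the reads and mapped them to TAIR10, and they deposited a table of raw counts per gene. Not given in the sources used here are the counting step, its annotation, its use of strand and its handling of reads with several matches. All 72 columns were used (0 left out), and 0 lines named no gene. Of the 27655 identifiers 27445 matched RefSeq, which gave names, positions and sequence. The upstream windows hold 250 bases of the TAIR10.1 genome, and no protein residues are shown.

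Counts were modelled with edgeR 4.0.16 in R 4.3.3 (robust quasi-likelihood test, TMM scaling, filterByExpr with a minimum count of 10 and a minimum total of 15) over the 48 libraries of Col-0 and sid2-2, with 1 mean per group and 32 residual degrees of freedom. Genes were called at a Benjamini-Hochberg adjusted p below 0.05, and the SE is the log2(FC) divided by the root of F. Differences between responses were contrasts of the same fit. CPM used TMM-scaled totals, except for marker sums and read shares, which used raw totals. In simulated counts of 20673 genes, 98 of 100 genes changed by 1 on the log2 scale and 100 of 100 changed by 2 were called, with 7 unchanged genes. The simulation set the spread by a formula and gave all groups the same mean apart from the changed genes. Those were drawn from genes with a mean count above 2 times the filter's minimum of 10. The recovery thus checks the code and does not hold for scarcer or more variable genes. DESeq2 1.42.0, edgeR on 6 or 72 libraries, RLE size factors, no filter, a replicate block and leaving out single libraries were the alternatives. Tables and figures used Python 3.11.15, pandas 2.3.3, scipy 1.17.1 and matplotlib 3.10.9. One sid2-2 library is labelled 30 min in its title and 3 h in another field. It was grouped by its title.

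The comparison and the gene lists (34, and 7 added after the values were seen) were chosen with earlier results of these data known. Genes that carry a family name only as an outdated alias (BRX, auxin response factors, GSTT1) were left out of that family. The text names the 10 called genes with the largest log2(FC) in each direction, among genes with separate groups and, in the higher group, on average 50 reads or more. It names up to 4 called members per list by lowest adjusted p, the 3 most abundant called genes in each direction, and up to 3 genes in each direction per difference of responses under the same overlap and count rule. Members are also named where their role makes an uncalled value needed, and other genes are named with values already seen (among them WRKY62, CML10, PROSCOOP4, RPS2, ZAR1, AT1G72910, RK3, RSL2, GRX480, NIMIN-1, WRKY46, PCC1, LLP, BDA1, RSL4 and RHD2).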

Additional observations from a re-analysis of the deposited data

Results flagged for a closer look

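The genes below are those named in the text whose response to NHP differed between times or genotypes by edgeR's quasi-likelihood test of the difference, with n = 3 libraries in each of the 4 groups behind a value. Differences are on the log2 scale and are given as 3 h minus 30 min, 6 h minus 3 h, or sid2-2 minus Col-0 at 3 h. Alternatives were run only for differences whose own rule had named the gene, so not for those of CML10 or WRKY14.

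Of the 26 genes with a stronger response at 3 h than at 30 min in Col-0, 14 are named here, many of them because they stand on the defence lists or had values already seen. The differences were 3.56 for LURP1, 2.49 for AT1G19960, 2.36 for ACD6, 1.68 for WAK1 and 1.00 for WRKY53. PROSCOOP4 (1.5), CML10 (0.90), CRK9 (0.89) and RK3 (1.03) followed, with the intracellular receptor genes AT1G72910 (1.48), RPS2 (0.62) and ZAR1 (0.56). The kinases AT1G16260 and AT1G69730, which resemble wall-associated kinases, differed by 0.81 and 0.67. At 30 min the log2(FC) of CRK9 was 0.00 and that of PROSCOOP4 was -0.15.

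Of the 23 genes with a lower response at 3 h than at 30 min, 9 were called lower at 3 h. Those named here are SRO5 (-1.39), NAS1 (-0.60), IRT3 (-0.56) and PIP1;1 (-0.32). The rule that picks genes by this difference asked for separate groups at 3 h, so it could not name genes whose groups overlapped then. NAS1, a nicotianamine synthase that serves metal transport, was at 237, 223 and 213 CPM in mock and 173, 161 and 158 CPM in NHP at 3 h. IRT3, a metal transporter, was at 27.3, 26.5 and 29.7 CPM in mock and 21.1, 22.9 and 18.0 CPM in NHP. Both genes had groups that did not overlap at 3 h, which the rule that named them required. Their differences lost the call when any of several libraries was left out (edgeR adjusted p up to 0.0608 for NAS1, in 3 of 18 alternatives, and up to 0.128 for IRT3, in 5 of 18). NAS1 and IRT3 are not members of the iron uptake list described above.

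Between 3 h and 6 h, ECS1 (1.36) and SUS1 (0.67) had a higher response at the later time and WRKY53 (-0.74) a lower one. SUS1, a sucrose synthase, was at 78.9, 69.6 and 74.2 CPM in mock and 58.2, 57.9 and 56.3 CPM in NHP at 3 h, and its log2(FC) was -0.37 at 3 h and 0.30 at 6 h. Its difference was lost in 4 of 18 alternatives (edgeR adjusted p up to 0.111).

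In sid2-2, SRO5 (1.41), AT3G21340 (0.89), AT3G18450 (0.75) and WRKY14 (0.56) had a higher log2(FC) than in Col-0. SRO5 was at 3.43, 4.11 and 4.42 CPM in mock and 4.89, 7.01 and 6.04 CPM in NHP in sid2-2, so its groups were apart in the direction opposite to that in Col-0. The calls of AT3G21340 and AT3G18450 were lost in 10 and 12 of 17 alternatives (edgeR adjusted p up to 0.217 and 0.146).

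A lower log2(FC) in sid2-2 than in Col-0 was found for AT2G39690 (-1.08), TIN1 (-1.07), ATCG01020 (-1.06), CML10 (-0.75), AT1G69730 (-0.44), CPN20 (-0.39) and AT4G01150 (-0.39). The chloroplast gene ATCG01020 was at 8.01, 12.9 and 9.49 CPM in mock and 19.5, 18.2 and 13.5 CPM in NHP in Col-0, and at 28.7, 25.3 and 25.1 CPM in mock and 20.0, 21.4 and 22.6 CPM in NHP in sid2-2. Its mock level thus differed between the genotypes more than its NHP level did. AT4G01150 was at 725, 731 and 638 CPM in mock and 577, 585 and 624 CPM in NHP in sid2-2. TIN1, induced by tunicamycin in Arabidopsis, was at 3.99, 3.02 and 2.64 CPM in mock and 2.53, 2.73 and 2.85 CPM in NHP in sid2-2, with overlap. The calls of AT2G39690 and TIN1 were lost in 6 and 7 of 17 alternatives (edgeR adjusted p up to 0.098 and 0.139), and AT2G39690 was not called at 3 h in Col-0 by itself (log2(FC) 0.53, edgeR adjusted p = 0.132). The mock libraries of sid2-2 and the NHP libraries of Col-0 share a batch, so genotype and batch cannot be told apart in these values.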

How the results depend on the processing

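The 749 calls at 3 h became 792 by DESeq2 on 48 libraries (704 shared), 755 by DESeq2 on the 6 (545 shared), 745 by edgeR on the 6 (560 shared), 813 by edgeR on 72 (698 shared), 693 with no filter (665 shared) and 731 with RLE size factors (701 shared). Without the sid2-2 library whose labels give 2 times there were 776. With the replicate number as a block 698 were called, and 38, 6 and 394 for the differences from 30 min, to 6 h and in sid2-2. The numbers did not pair the samples, since same-numbered mock and NHP libraries had correlations of -0.0172, -0.0282 and 0.0644 and not every library correlated best with its own number. Leaving out 1 of the 6 libraries gave 460 to 708 calls, 215 to 366 higher and 222 to 342 lower, and 64 to 82 up and 79 to 122 down past the log2(FC) limits. DESeq2 on 48 libraries gave 81 genes for the difference from 30 min, 69 for that to 6 h and 709 for that in sid2-2. The difference to 6 h was 10 with 72 libraries and 12 with RLE size factors, and that in sid2-2 was 262 with no filter. Leaving out single libraries, those of the other groups as added after seeing the data, gave 20 to 52, 0 to 19 and 97 to 701. The 0 came without mock replicate 3 of 6 h, where 1890 genes had an unadjusted p below 0.05 (edgeR). Of calls 49.9% were higher, and 42.3% to 58% under alternatives, while the median log2(FC) of all genes moved from 0.01 to 0.00 with RLE size factors. Of 2118 values of single genes 1888 kept direction and call, 223 lost the call, 6 gained it and 1 changed sign, PR1 at -0.19 without mock replicate 2, against up to 0.63 without mock replicate 3; PR1 was not called in either (edgeR). Of 1148 list counts 133 moved by over 1.5 times, 82 of them with a library left out. The cause was not tested. For genes with few reads, such as ALD1, depth limits what a missing call can show.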

Other observations

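Further families, given as counts and values, complete the lists. CAP proteins are small secreted proteins of the group that includes PR1. Of 12 tested, a list set up after the values were seen, 4 fell and 0 rose (median log2(FC) -0.21). AT5G57625, the most abundant of the 4, was at 59.5, 62.1 and 56.5 CPM in mock and 24.7, 29.8 and 21.9 CPM in NHP (log2(FC) -1.22 ± 0.10, edgeR adjusted p = 2.45e-11). AT4G25790, AT4G30320 and AT4G33730 had log2(FC) values of -1.31 ± 0.12, -1.27 ± 0.18 and -1.37 ± 0.22. None of these 4 lost its call in the 14 alternatives. PR1, which the product annotation left off this list, was not called by edgeR.

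Of 7 kinases annotated by product as wall-associated or similar, again listed after the values were seen, 4 rose and 0 fell. AT1G69730 was at 17.8, 20.2 and 21.2 CPM in mock and 30.2, 29.7 and 30.2 CPM in NHP (log2(FC) 0.60 ± 0.07). AT1G16260 was at 6.53, 7.53 and 8.08 CPM in mock and 11.5, 11.1 and 10.2 CPM in NHP (log2(FC) 0.56 ± 0.10). The other two were WAK1 and WAK2. For 5 of the 7 the NHP libraries lay entirely above the mock libraries, where 20.0% of all genes had groups apart in either direction.

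Of 175 heat shock and DnaJ genes 2 were called, both higher, where 3.58% of all genes were called and 1.79% were higher. At 30 min 19 of the 175 were higher and 0 lower, where 0.779% and 1.15% of all genes were. The responses of 7 differed between 30 min and 3 h, where 0.234% of all genes did. The call of AT1G71000 was lost in 12 of 14 alternatives and that of ARC6, a protein of chloroplast division, in 7 of 14 (edgeR adjusted p up to 0.596 and 0.267). Of 37 serine carboxypeptidase-like genes SCPL14 and SCPL16 rose and 0 fell. Of 8 GH3 genes, which conjugate hormones to amino acids, GH3.2 was called at 0.52 ± 0.14 and lost the call when any of 4 libraries was left out. Of 12 genes of phosphate starvation only G3Pp2 was called, lower by edgeR's test, and the other 11 had log2(FC) values from -0.44 to 0.39. The phosphate transporter PHT1;2 is not on this list and is named after its values were seen. It was at 1.12, 0.911 and 0.784 CPM in mock and 0.0375, 0.252 and 0.216 CPM in NHP (log2(FC) -2.47 ± 0.58, edgeR adjusted p = 0.00587). PHT1;5 and PHT1;9, also off the list, were not called (log2(FC) -0.09 and -0.60).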
